A study of Allium sativum with 42 samples.

Results

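In garlic (Allium sativum, cultivar Ershuizao), 47 of the 58219 gene IDs in the deposited expression table had a mean at least 8 times higher in every other sampled organ and bulb age than in root. A gene was taken when its group mean was at least 5 FPKM (fragments counted per kilobase of gene, scaled to the M, or mega, fragments mapped in the library) in each of the 13 groups other than root, and its root mean was at most 1/8 of the lowest of those 13 means. Altogether 45750 IDs were above 0 in some library, and 11293 reached the minimum in all 13 groups. The members were therefore chosen by their measured values, root level included, and everything said below of root is a description of that choice.

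All plants were of this cultivar and grown in the field, and bulk RNA of whole organs was sequenced in 42 libraries, 3 for each of 14 groups. Bulbs were sampled at 8 ages, which the labels give as 192, 197, 202, 207, 212, 217, 222 and 227 days. Buds were labelled 10 days, leaves, pseudostems, garlic sprouts and roots 212 days, and flowers 217 days. The labels name no treatment and no genetic change. The growth protocol dates the harvest of the grown organs to the 217-day bulb sampling, so the labelled ages of the organs are uncertain.

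Roots absorb water and minerals, whereas leaves and the pseudostem, a false stem of rolled leaf bases, carry out photosynthesis and the bulb stores reserves. Genes that are active in shoot organs and silent in roots in other plants typically serve photosynthesis, the cuticle or shoot patterning. The deposited table pairs no ID with a gene name or sequence, so the role of each member is unknown here and the tissue labels could not be checked against marker genes. In bulk RNA, fewer cells of a type and less RNA per cell cannot be told apart.

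Depth, taken from whole fragment counts recovered from the FPKM values, ranged from 5.9 to 35.4 M per library, and from 12.4 to 14.4 M in root. Replicate 2 of the 227-day bulbs stood apart from its 2 partners: 12 members lay below 0.5 times the lower partner and 3 above 2 times the higher one, so bulb counts are also given without it. No member was lost in it, since its lowest member, Asa7G02895.1 at 1.11 FPKM, was also the lowest single value of any member in the 39 libraries outside root. The labels do not say whether the replicates of a group are different plants, so each p-value below reflects the spread among these libraries alone, which may be technical.

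Root transcripts of the members ranged from none to clearly measurable. The median root mean was 0.340 FPKM, beside a median of 16.4 FPKM for the lowest other group mean of each member. In 33 members the root mean was below 1 FPKM, and in 14 it was 1 FPKM or more. No fragment was counted in any root library for 7 members, 1 to 3 fragments in all for 9, and more than 3 for 31. Among the 31, the lowest other group mean was 8.19 to 161 times the root mean, with a median of 29.96. Root libraries lay below all 39 others in 46 of the 47 members, and 4.44% of all 45750 IDs above 0 did so. That share follows from the rule and carries no weight of its own.

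The members with no root fragment were Asa0G02614.1, Asa4G03776.1, Asa4G03778.1, Asa5G00604.1, Asa5G04505.1, Asa7G01612.1 and Asa7G02895.1. Measured against a floor of 3 counts over the 3 root libraries, which corresponds to 0.0476 to 0.200 FPKM in these genes, their lowest other group mean was at least 51.0-fold higher (Asa7G02895.1) to at least 421-fold higher (Asa5G00604.1). These bounds cover counting error only. Asa0G02614.1 had the second-highest bound, at least 258-fold. Outside root it measured 14.96, 12.3 and 17.4 FPKM in 192-day bulbs, its lowest group, and 411, 426 and 270 FPKM in sprouts, its highest.

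Other members kept a measurable remnant in root, steady in some and uneven in others. Asa7G04744.1 measured 4.56, 4.22 and 4.18 FPKM in the root libraries, against a lowest other group mean of 45.6 FPKM. Asa3G04856.1 averaged 11.6 ± 2.28 FPKM in root (SD, n = 3), with 165.6 FPKM in leaf as its lowest other mean. Asa1G06382.1 had the highest root mean, at 63.1, 183 and 16.5 FPKM, far below its 1150 ± 85.7 FPKM in 192-day bulbs. The root libraries of this gene differed more from one another than those of Asa7G04744.1.

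Root replicate 2 held the most member RNA. Summed over the members it reached 276 FPKM, against 117 in replicate 1 and 63.8 in replicate 3, and 93.1, 53.5 and 47.3 FPKM without Asa1G06382.1. Of the 40 members with any root fragment, 21 were highest in replicate 2, 11 in replicate 1 and 8 in replicate 3. The single member whose root range reached into the others was Asa5G00606.1, with 0.621, 7.29 and 1.21 FPKM in root beside 84.6, 3.43 and 29.9 FPKM in leaf. Applying the rule without root replicate 2 gave 55 genes, 46 of them among the 47. Whether RNA of other organs contributed to the root values was not tested.

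**Figure D1:**
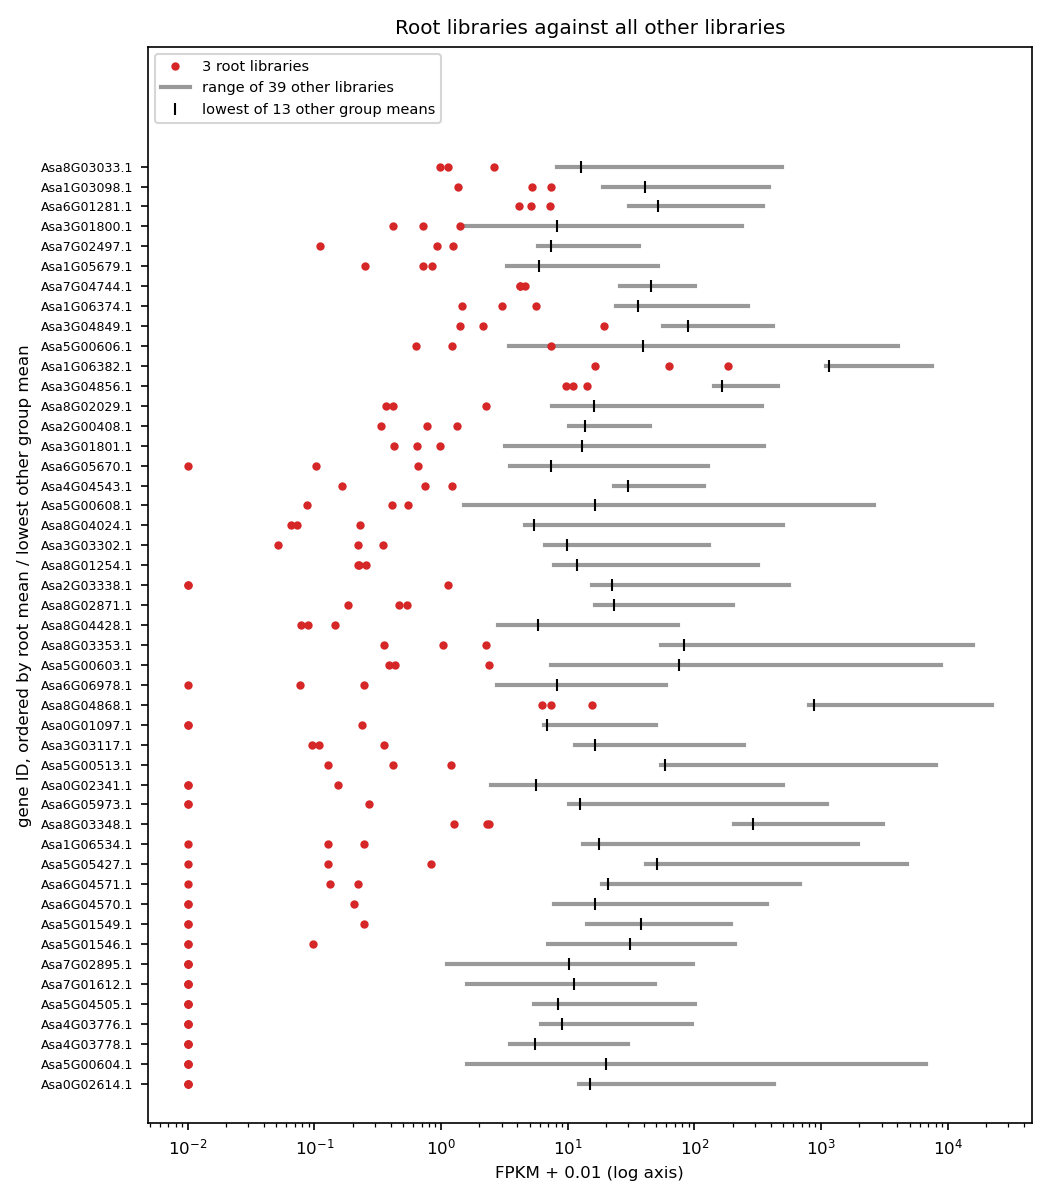
FPKM + 0.01 of each member on a log axis, with red points for the 3 root libraries, a grey bar for the range of the 39 other libraries and a black tick for the lowest of the 13 other group means. Points at the left edge are root libraries with no fragment, and in 46 of the 47 members every red point lies left of the grey bar.

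Genes on either side of the limits of the rule had similar values. Just inside the ratio were Asa8G03033.1, with a root mean of 1.55 FPKM against 12.7 FPKM in flower (ratio 0.122), and Asa1G03098.1 (4.62 against 40.5 FPKM in pseudostem, ratio 0.114). Just outside were Asa3G01434.1 at 0.127 and Asa4G00611.1 at 0.129. At the minimum level, Asa8G04024.1 (5.44 FPKM in 192-day bulbs) and Asa4G03778.1 (5.46 FPKM in sprout) were just inside. Asa2G03254.1, with 4.81 FPKM in leaf, and Asa6G03054.1, with 4.78 FPKM in flower, were just outside. A ratio of 1/4 would have given 100 genes and a minimum of 2 FPKM 81 genes.

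With another group in the place of root, the same rule found 41 genes for leaf, 5 for 192-day bulbs, 3 for sprouts, 1 each for buds and flowers, and 0 for pseudostems and each of the other 7 bulb ages. A bulb age has 7 similar neighbours that must all stay high, so these counts are not on an equal footing. With 212-day bulbs alone standing for bulb, 73 genes were low only in root among 7 tissues, 46 in leaf, 23 in bud, 18 in bulb, 10 in flower, 6 in sprout and 0 in pseudostem.

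Outside root the members were abundant and uneven. Their mean over the 13 groups had a median of 83.4 FPKM and ran from 13.95 to 4879 FPKM, with 7 members at 1000 FPKM or more, 16 from 100 to 1000 and 24 below 100. All genes at the minimum in the 13 groups had a median of 28.5 FPKM. The highest of the 13 means was a median of 10.9 times the lowest in the members, and 3.01 times in all genes at the minimum. In 26 members this ratio was 10 or more. It was smallest in Asa7G04744.1 (1.78) and largest in Asa8G03353.1 (181).

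Asa8G04868.1 was the most abundant member, with a mean of 4879 FPKM over the 13 groups. It measured 17647, 17310 and 22240 FPKM in pseudostems, 6225, 8125 and 5065 FPKM in sprouts, and 916, 800 and 896 FPKM in 192-day bulbs, and 6.24, 15.5 and 7.37 FPKM in root. Pseudostem libraries lay above those of every other group. Asa1G06382.1 followed at 3015 FPKM, and Asa5G00603.1 at 2599 FPKM.

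The share of a library's summed FPKM held by the members differed among organs. It was 4.201% ± 0.333 in sprouts (SD, n = 3) and 3.003% ± 0.326 in pseudostems, then 1.92% ± 0.168 in flowers, 1.27% ± 0.324 in buds and 1.05% ± 0.116 in leaves. In bulbs it was 0.487% ± 0.0305 at 192 days and 0.658% ± 0.0878 at 197 days, and 202-day and 207-day bulbs held 1.25% ± 0.272 and 1.45% ± 0.175. The 212-day and 217-day bulbs held 1.87% ± 0.312 and 1.77% ± 0.239, and the 222-day and 227-day bulbs 2.51% ± 0.447 and 2.88% ± 0.754. Leaf and bud did not differ beyond their spread, nor did flower and 212-day bulb. Root held 0.0130% ± 0.0099. A few very abundant members carry these shares, and the median member moved differently, at 47.4 FPKM in 192-day bulbs, 94.5 FPKM at 207 days and 45.8 FPKM at 227 days.

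Sprout was the group with the highest mean for 15 members, bud for 10, pseudostem for 5, leaf for 2, flower for 2 and a bulb age for 13. The median member stood at 218 FPKM in sprouts and between 45.8 and 94.5 FPKM in the other groups outside root. Lowest outside root were 192-day bulbs for 11 members, 227-day bulbs for 9, leaves for 9, sprouts for 4, buds, pseudostems and 212-day bulbs for 3 each, flowers and 197-day bulbs for 2 each, and 222-day bulbs for 1.

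**Figure D2:**
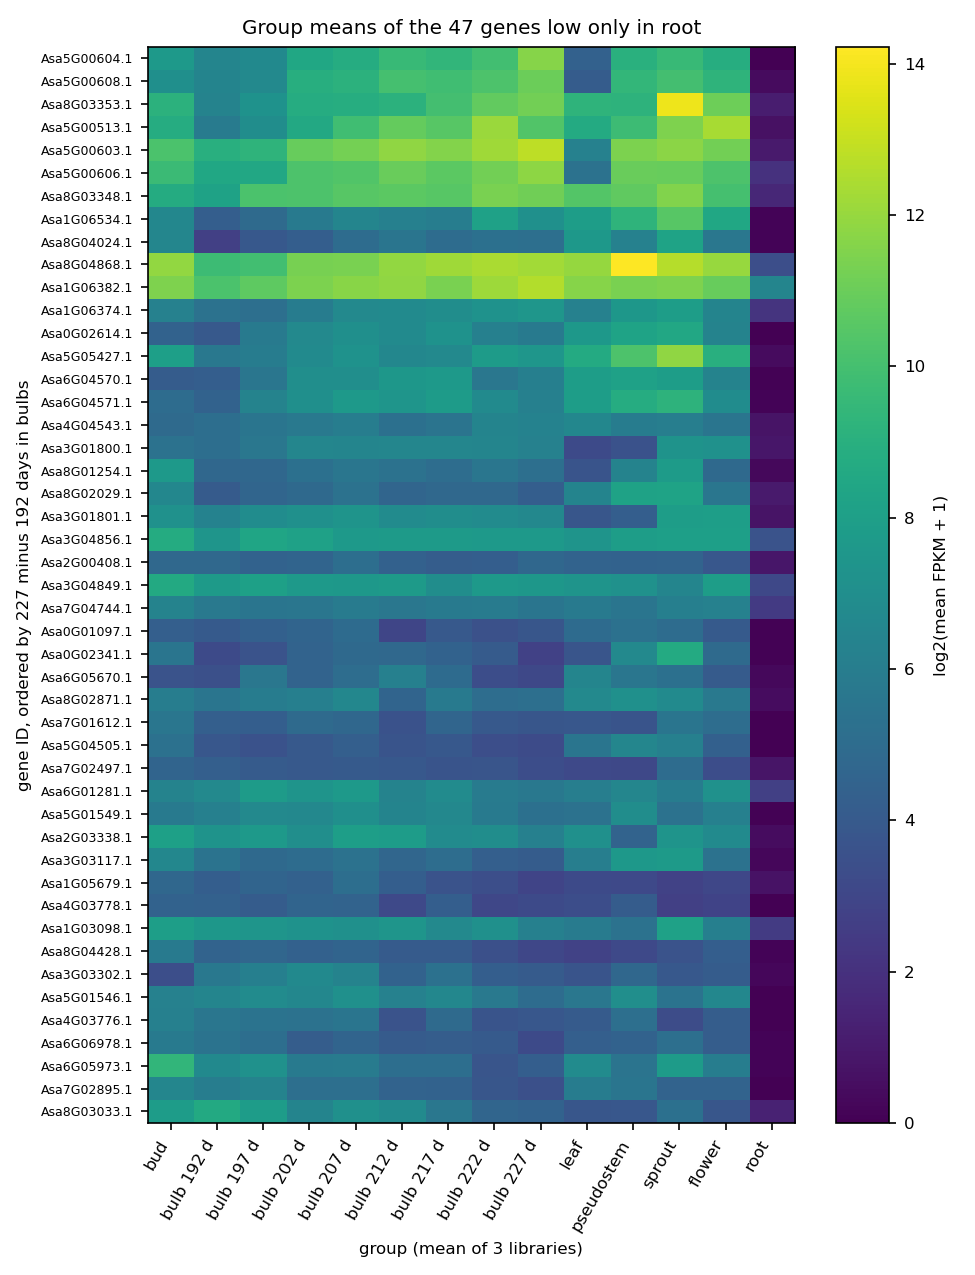
Colour shows log2(mean FPKM + 1) of the 47 members (rows, ordered by the difference between 227-day and 192-day bulbs, largest rise at the top) in the 14 groups (columns, mean of 3 libraries each). The root column is dark throughout by the rule, and the sprout column is the brightest for 15 members.

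How the members moved while bulbs aged was tested with limma on log2(FPKM + 1) over the 24 bulb libraries, with p-values adjusted over all 30430 genes tested. Members were called where the log2 difference was 1 or more in size and the adjusted p under 0.05. The rule did not compare bulb ages, although it set a minimum for each. All 47 members passed the filter on low values, as the minimum ensured. At 227 against 192 days 18 members were higher, where 8.32% of all genes tested were, and 14 were lower, where 21.1% of all genes were. Among all genes at the minimum in the 13 groups, 5.24% were higher and 24.7% lower. Members with closely numbered IDs, described below, may not be separate signals, so these are counts of IDs.

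The higher members differed by 1.08 to 4.79 on the log2 scale and the lower ones by -4.16 to -1.05. The other 15 lay between -1.19 and 0.53. The libraries of 227 days all lay above those of 192 days in 18 members, where 16.2% of all genes did so, and all below in 16, where 38.4% did so. Of the called members, 17 of the 18 higher and 14 of the 14 lower showed no overlap. Calls and overlap rest on the same libraries, and the share of all called genes without overlap was not computed. These counts therefore describe the called members and are no separate check of the calls.

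Scaling bears on these counts. The median log2 difference of all genes was -0.28, and that of the members -0.27. Median-of-ratios scaling moved the median of all genes by 0.29 and quantile normalization by 0.24, and the members' medians then were 0.13 and 0.27. Relative to all genes the members' median thus stood 0.02 higher with FPKM as deposited. The medians of members and all genes were farther apart after median-of-ratios scaling (0.13 and 0.01) and after quantile normalization (0.27 and -0.05). Over all genes, 2531 were called higher and 6417 lower with FPKM (28.3% higher), 3985 and 4169 after median-of-ratios scaling (48.9% higher), and 3629 and 4304 after quantile normalization (45.7% higher). The same 18 members were called higher under each of these scalings, with 1 more after quantile normalization. Of the 14 lower members 9 were called after median-of-ratios scaling and 10 after quantile normalization. Without replicate 2 of the 227-day bulbs the same 18 were higher and 10 of the 14 lower.

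Asa5G00604.1 showed the largest rise with all libraries in the fit. It measured 90.7, 63.2 and 109 FPKM at 192 days, 621, 928 and 711 FPKM at 212 days, and 1077, 6746 and 1883 FPKM at 227 days, with replicate 2 the highest. Every library of 227 days lay above every library of 192 days. The log2 difference was 4.79 ± 0.51 (SE, limma adjusted p = 2.84e-07). With each library left out in turn it ranged from 4.04 to 5.37, and that of Asa5G00608.1 from 4.36 to 4.91. At its minimum Asa5G00604.1 was thus no longer the largest rise.

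Asa5G00608.1 rose almost as far, from 87.0, 59.7 and 110 FPKM to 1296, 2591 and 2450 FPKM, again with no overlap between the ages (log2 difference 4.59 ± 0.43, limma adjusted p = 6.00e-08). The 2 most abundant members rose as well. Asa8G04868.1 went from 871 ± 61.9 to 4798 ± 1178 FPKM (SD, n = 3; log2 difference 2.44 ± 0.33) and Asa1G06382.1 from 1150 ± 85.7 to 6039 ± 1354 FPKM (2.37 ± 0.29), with limma adjusted p of 5.46e-06 and 1.74e-06.

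Asa8G03033.1 showed the largest fall, from 490, 415 and 297 FPKM at 192 days to 22.5, 25.4 and 16.2 FPKM at 227 days. The ages were far apart in every library, and the log2 difference was -4.16 ± 0.38 (limma adjusted p = 4.78e-08). Asa7G02895.1 fell from 65.9, 67.3 and 55.8 FPKM to 19.8, 1.11 and 9.60 FPKM, the lowest in replicate 2. Its log2 difference was -3.04 ± 0.58 (limma adjusted p = 0.000238), and ranged from -3.75 to -2.10 with each library left out in turn.

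With age as a linear term, 13 members rose over the 35 days, where 9.60% of all genes tested did so, and 14 fell, where 18.8% did so. The 13 were among the 18 higher members and the 14 were the 14 lower ones. The trend shares libraries with the comparison of the end ages. Without replicate 2 of the 227-day bulbs 17 rose and 11 fell, and the shares of all genes in that fit were not computed. A difference among the 8 ages of any shape (limma F test, adjusted p below 0.05) was called for 38 members, where 59.0% of all genes were called and 71.7% of the genes at the minimum.

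The trend was steepest in Asa5G00513.1, with a fitted rise of 5.07 ± 0.66 on the log2 scale over the whole span (SE, limma adjusted p = 4.40e-07). It measured 55.9, 64.9 and 54.6 FPKM at 192 days and 1429, 8009 and 3426 FPKM at 222 days, then 765, 896 and 2287 FPKM at 227 days. The 222-day libraries spread widely and overlapped those of 227 days. Asa8G03353.1 rose by a fitted 4.54 ± 0.38 (limma adjusted p = 6.34e-10).

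Downward, Asa8G03033.1 fell by 4.07 ± 0.37 on the log2 scale over the whole span and Asa6G05973.1 fell by 3.22 ± 0.40 (limma adjusted p of 2.00e-09 and 2.38e-07). Asa6G05973.1 measured 124, 102 and 98.5 FPKM at 192 days and 12.01, 27.7 and 13.5 FPKM at 227 days. Its libraries did not overlap between these ages.

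**Figure D3:**
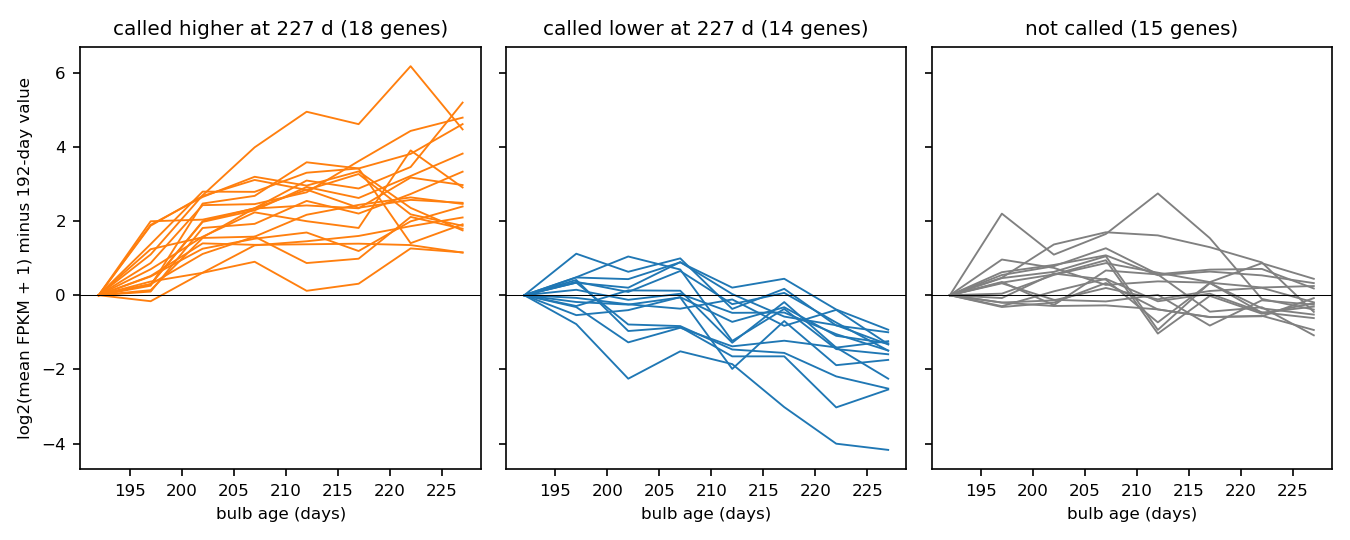
Each line is 1 member, plotted as log2(mean FPKM + 1) at each bulb age in days minus its value at 192 days, in panels for the 18 members called higher at 227 days, the 14 called lower and the 15 not called. At 227 days the called members lie above or below 0 by panel, some after a turn back towards 0 from an earlier age, and the lines of the members not called end nearer to 0 or as low as the smallest called falls.

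Which shoot organ held most of each member was tested in the 18 libraries of buds, leaves, pseudostems, sprouts, flowers and 212-day bulbs, with root left out and p-values adjusted over 32655 genes. Some difference among the 6 tissues was called for 45 members (F test), where 88.8% of all genes were called. The 5 contrasts with bulb share the bulb libraries, so their counts are not independent of one another.

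Sprouts had more members above 212-day bulbs than the 4 other organs had. There 18 members were higher, where 14.6% of all genes tested were (9.89% of the genes at the minimum), and 5 were lower, where 9.59% of all genes were. The members' median log2 difference was 0.72 and that of all genes 0.12. Median-of-ratios scaling moved the latter by -0.13 and left the members' median at 0.53.

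Asa5G05427.1 measured 2756, 3507 and 4769 FPKM in sprouts and 74.9, 130 and 75.1 FPKM in 212-day bulbs. All sprout libraries were far above all bulb libraries, and the log2 difference was 5.30 ± 0.37 (SE, limma adjusted p = 1.03e-08). The same member also showed the largest called rise against bulb in pseudostem (3.66 ± 0.37), flower (2.38 ± 0.37) and leaf (2.12 ± 0.37), with limma adjusted p of 4.63e-07, 8.68e-05 and 0.000101.

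Asa8G03353.1 was the most abundant member in sprouts, at 15392, 15925 and 13400 FPKM. Its 212-day bulbs measured 631, 690 and 388 FPKM and its flowers 2289, 2376 and 1869 FPKM. Sprout libraries lay above those of every other group, with a log2 difference of 4.75 ± 0.40 from bulb (limma adjusted p = 1.03e-07). The largest falls in sprouts were small, at -1.55 ± 0.23 in Asa8G03033.1 and -1.48 ± 0.32 in Asa1G05679.1 (limma adjusted p of 4.23e-05 and 0.00126). Neither was called against 217-day bulbs, where the differences were -0.24 and -0.56 (limma adjusted p = 0.63 and 0.41).

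In pseudostems 12 members were higher than in bulbs, where 18.4% of all genes tested were, and 8 were lower, where 13.1% were. The shares of the genes at the minimum were 13.4% and 10.0%. Against 217-day bulbs 5 members were lower, where the share of all genes was not computed. Asa8G02029.1 measured 286, 261 and 318 FPKM against 19.4, 33.7 and 19.5 FPKM in bulbs, without overlap (3.56 ± 0.37 on the log2 scale, limma adjusted p = 7.59e-07). Downward, Asa3G01800.1 measured 22.2, 1.43 and 9.45 FPKM in pseudostem beside 84.5, 121 and 62.5 FPKM in bulb (-3.38 ± 0.59, limma adjusted p = 0.000154). Asa2G03338.1 measured 22.4, 28.8 and 15.6 FPKM beside 243, 221 and 229 FPKM (-3.36 ± 0.48, limma adjusted p = 2.32e-05). Both were lower in every pseudostem library than in any 212-day bulb library.

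Leaves had 10 members higher than bulbs, where 18.4% of all genes tested were, and 13 lower, where 20.2% were. The shares of the genes at the minimum were 14.1% and 17.6%. Asa8G02871.1 measured 105, 83.9 and 121 FPKM in leaves and 25.4, 20.5 and 23.4 FPKM in 212-day bulbs, without overlap (log2 difference 2.10 ± 0.28, limma adjusted p = 6.26e-06). Against 217-day bulbs its difference was 0.86, below the size needed for a call. The largest falls in leaf were those of the 4 members Asa5G00603.1, Asa5G00604.1, Asa5G00606.1 and Asa5G00608.1, and the other 9 ranged from -3.29 to -1.05 on the log2 scale. Those 4 members had closely numbered IDs and similar profiles, described below, and may not be separate signals. Asa5G00608.1 measured 39.3, 1.49 and 8.27 FPKM in leaves and 811, 1390 and 903 FPKM in bulbs, also without overlap (-6.69 ± 0.68, limma adjusted p = 3.34e-07). Asa5G00606.1 differed by -6.48 ± 0.66 (limma adjusted p = 3.34e-07).

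Leaf and pseudostem are both of leaf origin and labelled with the same age. Between them 2 members were higher in leaf, where 6.44% of all genes tested were, and 16 lower, where 9.66% were. The shares of the genes at the minimum were 4.22% and 6.85%. Asa5G00606.1 (-6.49 ± 0.66) and Asa5G00608.1 (-6.11 ± 0.68) were again the lowest, with limma adjusted p of 3.42e-06 and 8.09e-06. The 2 higher in leaf were Asa2G03338.1 (283, 62.3 and 66.0 FPKM in leaf, log2 difference 2.24 ± 0.48, limma adjusted p = 0.00246) and Asa8G04024.1 (256, 142 and 171 FPKM in leaf and 105, 26.5 and 91.2 FPKM in pseudostem, 1.52 ± 0.43, limma adjusted p = 0.0134). In both genes every leaf library lay above every pseudostem library, but the count rested on single libraries. Only 1 member was higher without leaf replicate 1 or pseudostem replicate 2, when Asa8G04024.1 was no longer called, and 4 were higher without leaf replicate 3 or pseudostem replicate 1.

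Buds had 15 members higher than bulbs, where 18.8% of all genes tested were, and 9 lower, where 6.67% were (11.9% and 5.96% of the genes at the minimum). Median-of-ratios scaling and quantile normalization moved the median of all genes in this contrast, 0.32, by -0.27 and -0.32. They left 12 members higher under each, where the shares of all genes were not computed. Asa6G05973.1 measured 1111, 392 and 479 FPKM in buds and 36.0, 34.5 and 30.9 FPKM in bulbs (log2 difference 4.10 ± 0.60, limma adjusted p = 4.35e-05). Asa4G03776.1 measured 95.7, 61.0 and 62.2 FPKM against 13.9, 9.19 and 10.6 FPKM (2.58 ± 0.31, limma adjusted p = 5.31e-06). Neither gene overlapped between the groups.

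Downward in buds, Asa6G04570.1 measured 28.7, 7.74 and 12.9 FPKM against 193, 210 and 146 FPKM in bulbs, without overlap. Its log2 difference was -3.57 ± 0.37 (limma adjusted p = 1.11e-06), and that of Asa5G00608.1 was -3.01 ± 0.68 (limma adjusted p = 0.00183). Age and organ go together for buds.

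Flowers had the fewest calls against 212-day bulbs of the 5 organs. There 7 members were higher, where 8.57% of all genes tested were, and 5 lower, where 12.1% were. The shares of the genes at the minimum were 5.66% and 11.8%. Without flower replicate 2 the higher count was 4, and without flower replicate 1 the lower count was 3. Against 217-day bulbs 4 were higher and 2 lower, and the share of all genes in that contrast was not computed. Asa1G06534.1 measured 247, 412 and 399 FPKM in flowers and 62.6, 93.4 and 64.3 FPKM in bulbs (log2 difference 2.24 ± 0.32, limma adjusted p = 4.48e-05). Asa8G03033.1 measured 8.16, 17.3 and 12.7 FPKM against 123, 112 and 95.2 FPKM (-3.06 ± 0.23, limma adjusted p = 7.26e-08). Both had no overlap between the groups. Asa6G05670.1 differed by -2.11 ± 0.30 (limma adjusted p = 4.24e-05), and by -0.57 against 217-day bulbs, where it was not called.

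**Figure D4:**
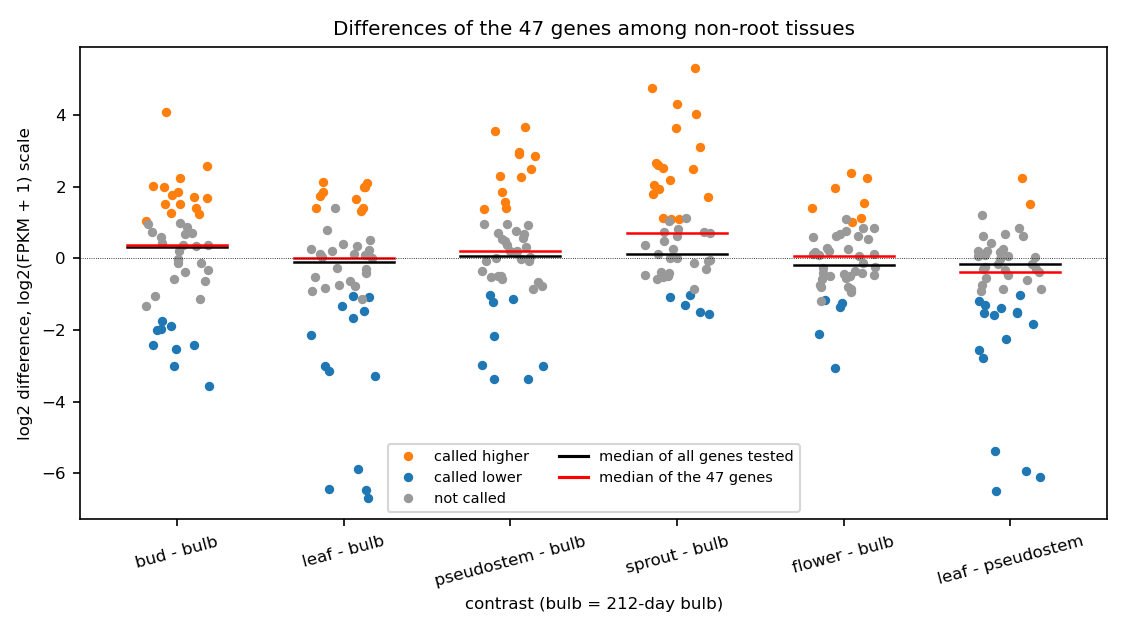
Each point is 1 of the 47 members, plotted by its log2 difference on the log2(FPKM + 1) scale in 6 contrasts among organs (bulb is the 212-day bulb), coloured by call, with lines for the medians of the members and of all genes tested. The medians lie farthest apart for sprout against bulb, at 0.72 and 0.12, and the lowest points are members far lower in leaf.

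Of the 47 members, 7 (14.9%) were called higher in 1 tissue than in each of the 5 others, a share near the 15.2% of all genes tested and above the 7.41% of the genes at the minimum. They were 4 members in sprout, where 0.910% of all genes tested were, 2 in bud (6.21%), 1 in pseudostem (1.67%) and 0 in bulb (1.34%), leaf (3.30%) and flower (1.77%). The remaining 40 were elevated in none. The sprout members were Asa8G03353.1, Asa5G05427.1, Asa0G02341.1 and Asa1G06534.1, the last 3 named here because the count is small. Asa8G03353.1 stood 2.78 ± 0.40 on the log2 scale above flower, its nearest tissue, and the 3 others stood 1.64 ± 0.37, 2.17 ± 0.67 and 1.35 ± 0.32 above pseudostem (limma adjusted p from 3.01e-05 to 0.0175).

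The pseudostem member was Asa8G04868.1, 1.58 ± 0.32 on the log2 scale above sprout (limma adjusted p = 0.00102). In bud, Asa8G04428.1 measured 74.0, 42.9 and 45.1 FPKM, above its 16.8, 19.7 and 17.0 FPKM in flower by 1.51 ± 0.33 (limma adjusted p = 0.00094). The other bud member was Asa8G03033.1, 1.05 ± 0.23 above the 212-day bulb, the only bulb age in this fit. Its 252, 211 and 220 FPKM in bud lay below its 490, 415 and 297 FPKM in 192-day bulbs. The bud count was 0 after median-of-ratios scaling, 1 without replicate 3 of the 212-day bulbs or bud replicate 1, and 4 without pseudostem replicate 2.

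Some members had closely numbered IDs, and the share of all genes with such neighbours was not computed. With a window of 10 ID numbers under the same prefix, 18 members fell into 8 runs and 29 stood alone. Under the same window, 2 of the 41 genes low only in leaf had another such gene near them, a description with no test. The sources used here do not say whether ID numbers follow position on a chromosome, and without sequences it is not known which members are near-identical copies. Reads of such copies could be divided among them, so the levels within a run are uncertain.

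The longest run was Asa5G00603.1, Asa5G00604.1, Asa5G00606.1 and Asa5G00608.1, while the IDs between them, Asa5G00605.1 and Asa5G00607.1, had no fragment in any library. Across the 13 group means outside root the 4 members correlated at r = 0.959 to 0.993, a description over groups that share libraries and depth. This and the correlations of the other runs were taken on log2(mean FPKM + 1), and no correlation of members outside the runs was set beside them. Each of the 4 members was lowest in leaf after root, and each was called higher at 227 than at 192 days. Asa5G00603.1 measured 530, 417 and 549 FPKM at 192 days and 5269, 6980 and 8875 FPKM at 227 days (log2 difference 3.79 ± 0.37, limma adjusted p = 1.19e-07), and Asa5G00606.1 differed by 3.31 ± 0.35 (limma adjusted p = 2.47e-07).

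Leaf libraries of this run differed strongly from one another. Asa5G00603.1 measured 160, 7.42 and 60.3 FPKM in them and Asa5G00604.1 measured 41.5, 1.58 and 17.0 FPKM, so that replicate 1 was the highest and replicate 2 the lowest in each. The same order held for Asa5G00606.1 and Asa5G00608.1. Membership of these last 2 rested on leaf replicate 1, the library of lowest depth (5.9 M). Without it the rule gave 44 genes, and Asa5G00606.1 and Asa5G00608.1 were not among them. Across all members, 21 were lowest in leaf replicate 2, 18 in replicate 3 and 8 in replicate 1. Pseudostem libraries of Asa5G00603.1 were close together at 2792, 2599 and 2649 FPKM, all above every leaf library.

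**Figure D5:**
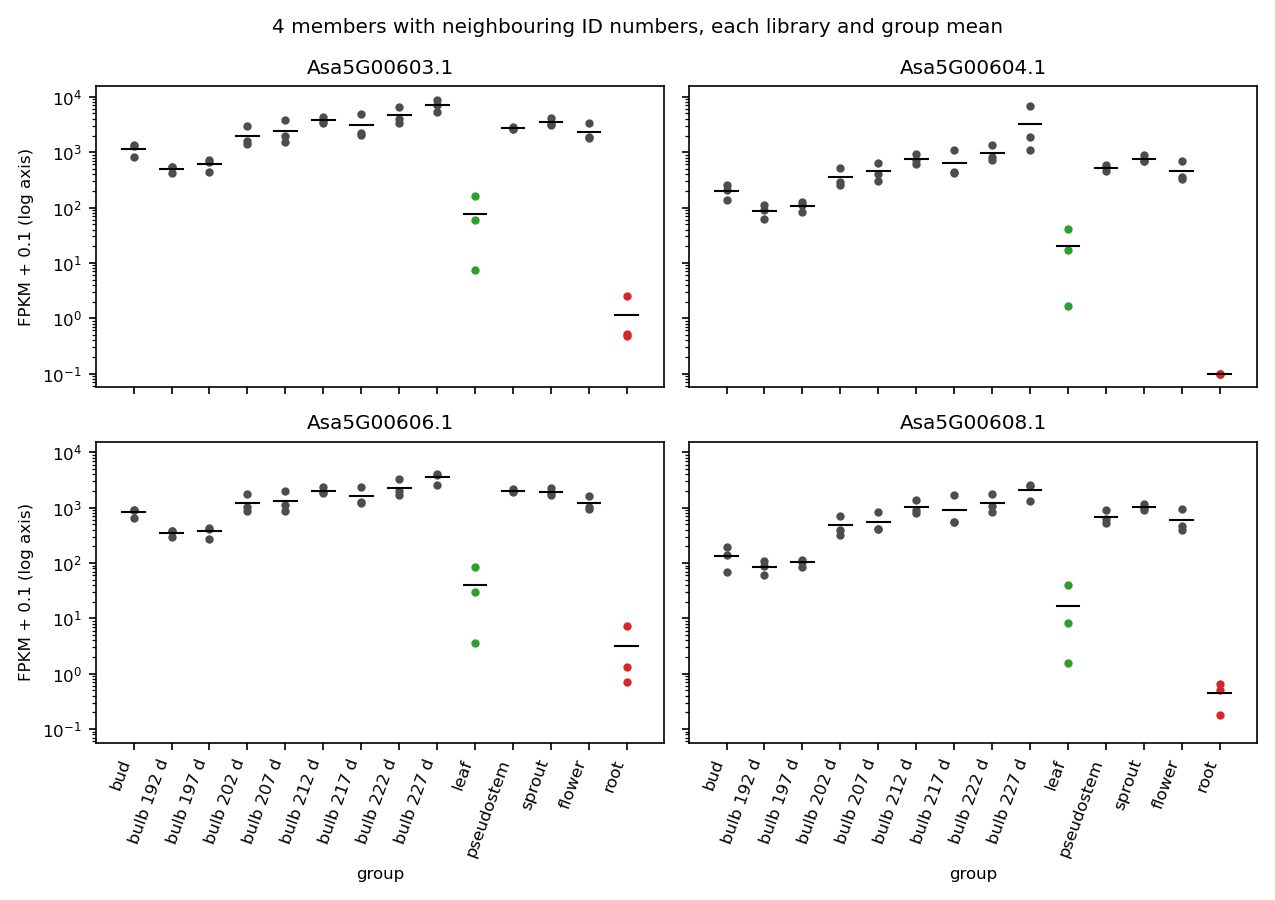
FPKM + 0.1 on a log axis for Asa5G00603.1, Asa5G00604.1, Asa5G00606.1 and Asa5G00608.1 in the 14 groups, with a point for each library and a line for each group mean. In all 4 panels the bulb means climb from 192 to 212 days, drop at 217 days and are highest at 227 days. Leaf values (green) are low and spread widely. The root mean (root points are red) is the lowest in each panel, with no fragment for Asa5G00604.1. In Asa5G00606.1, root replicate 2 lies above leaf replicate 2.

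A second pair, Asa3G01800.1 and Asa3G01801.1, shared low values in both leaf and pseudostem (r = 0.939 over the 13 group means). Asa3G01801.1 measured 13.5, 5.75 and 19.4 FPKM in leaf and 33.7, 3.20 and 17.9 FPKM in pseudostem, beside 326, 202 and 184 FPKM in sprout. In both genes replicate 2 of leaf and of pseudostem was the lowest of its group. All leaf and pseudostem libraries lay below all sprout libraries.

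Asa4G03776.1 and Asa4G03778.1, both without any root fragment, correlated at r = 0.934. The ID between them, Asa4G03777.1, was also at 0 in root and missed the set because its sprout mean was 4.51 FPKM. Asa6G04570.1 and Asa6G04571.1 (r = 0.942) were both low in buds and 192-day bulbs. Asa6G04571.1 measured 45.4, 25.04 and 23.8 FPKM in bud and 654, 679 and 434 FPKM in sprout, with no overlap.

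Asa5G01546.1 and Asa5G01549.1 (r = 0.942) both fell with bulb age, and the IDs between them were present in root at 21.3 and 1.75 FPKM. The other 3 runs were looser, at r = 0.701 for Asa8G03348.1 and Asa8G03353.1, 0.675 for Asa1G06374.1 and Asa1G06382.1, and 0.463 for Asa3G04849.1 and Asa3G04856.1. In the last of these, Asa3G04852.1 lies between the members by number and had the opposite pattern, with a mean of 66.8 FPKM in root and at most 0.146 FPKM in any other group. It is named because of that contrast, after its values were seen.

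By ID prefix, Asa5G had 9 members among 7149 IDs and Asa8G 9 among 5426, Asa3G 6 among 7651 and Asa6G 6 among 7949. Asa1G had 5 among 6627, Asa7G 4 among 6471, Asa0G 3 among 6020, Asa4G 3 among 6001 and Asa2G 2 among 4925. Relative transcript length, read from the FPKM steps in arbitrary units, had a median of 1.05 in the members (quartiles 0.759 and 1.40) and 1.21 in all genes at the minimum (0.674 and 1.93).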

How the data were processed

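RNA-seq of 42 garlic libraries was analysed from a single table in which the authors deposited FPKM for 58219 gene IDs, 1 column per library. The submitters' processing notes name Bowtie2 and RSEM, without versions, and neither the reference nor the annotation is given in the sources used here. The unit was taken from the deposited table's title and values. FPKM is relative to a library's total, so a rise of a few very abundant genes lowers all others.

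Columns were matched to samples by title, and 0 were left over. Whole fragment counts were recovered from the steps in each gene's FPKM values: of 45750 IDs above 0, 45656 came out whole within 0.001 and 94 within 0.01. RSEM can give fractional counts, and the way fragments were counted, including those shared by near-identical genes, is not known. The recovered counts gave depth and root counts, and the counts behind 1 alternative. No 2 replicates agreed within sampling noise (lowest chi-square per degree of freedom 11.61).

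Tests used limma 3.58.1 in R 4.3.3 on log2(FPKM + 1) with a variance trend and Benjamini-Hochberg adjustment over all genes that reached 1 FPKM in 3 or more of the fitted libraries. This scale understates changes of low genes. The procedure was also run on simulated counts with known changes in a single group, and the outcome is not reported here. The simulation held no shift in scaling, so it cannot speak to the effect of scaling on the counts. No main test included root libraries. Alternatives were a pseudocount of 0.1, other filters, TPM, median-of-ratios and quantile scaling, a replicate block, 217-day bulbs, root libraries in the fit, each library left out, and limma-voom on the recovered counts, the last chosen after seeing the data.

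The members and the comparisons were chosen with earlier results of these data known. Named genes are the 3 most abundant members, the 2 lowest root ratios, those nearest the limits of the rule, the 2 largest called rises and falls per contrast and for the age trend, the elevated member farthest above its nearest tissue, and members of ID runs. Others are named as examples chosen after their values were seen.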

Additional observations from a re-analysis of the deposited data

How the results depend on the processing

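Set size moved by over 1.5 times with a ratio of 1/4 (100 genes) and a minimum of 2 FPKM (81 genes), both of which contain the 47 by construction. It was 43 with TPM, 42 with median-of-ratios scaling (40 shared), and 44 to 55 with each library left out. Of 741 alternatives for the 25 counts, 23 moved a count by over 1.5 times. Called shares of all genes were taken for the main fits, and under other scalings only for 227 against 192 days. The other counts under alternatives have no such share beside them. With median-of-ratios scaling, 9 members were lower at 227 days, and 0 were elevated in bud and 1 in flower. With quantile normalization, 3 were lower in flower, 1 was elevated in bud and 1 in flower. With 217-day bulbs, 5 were lower in pseudostem, and 4 were higher and 2 lower in flower. Limma-voom gave 4 elevated in bud. The cause of these shifts was not tested. With each library left out in turn, the bud-elevated count ranged from 1 to 4, the flower-elevated count from 0 to 1 (1 without sprout replicate 3 or flower replicate 3), the count higher in leaf than pseudostem from 1 to 4, and those higher and lower in flower from 4 to 8 and from 3 to 6.

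Of 928 alternatives for 32 differences of named genes, 922 kept direction and call, 6 lost the call and 0 reversed. The 6 were 4 with 217-day bulbs and 2 for Asa8G04024.1 in leaf against pseudostem, at 1.28 without leaf replicate 1 and 0.90 without pseudostem replicate 2 (limma adjusted p = 0.065 and 0.061).

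Replicate numbers showed little sign of pairing, although these correlations cannot exclude it. Deviations of same-numbered libraries at 192 and 227 days correlated at -0.142 to 0.159, with 1 of 3 above 0.1. In the bulb fit 84 such pairs ran from -0.288 to 0.361 (median -0.016, 15 above 0.1). In the tissue fit 35 ran from -0.135 to 0.186 (median -0.01, 6 above 0.1). With the replicate number as a block, 18 members were higher and 13 lower at 227 days, and no count moved by over 1.5 times. With at most 3 fragments, the root level of 16 members is limited by depth.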
